A study of Mus musculus with 7 samples.

Results

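Solute carriers are the membrane proteins, named Slc or Slco followed by a family number, that move sugars, lactate, amino acids, ions, vitamins and lipids across the plasma membrane and the membranes of organelles. The Slc25 family, whose members sit in the inner mitochondrial membrane, was left out. The remaining members were found by their gene symbol alone, without use of any measured value, and numbered 173 of the 12239 genes in the expression table. All 173 were tested. By the substance they are known to carry, 14 were placed with glucose and other sugars, 9 with lactate and other monocarboxylates, 30 with amino acids and short peptides, 26 with cations and 18 with zinc. A further 76 carried other substances or, in 5 cases, bore only the name of a carrier that their product binds or neighbours.

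Messenger RNA was sequenced from the tibialis anterior (TA), which lies along the shin and is made up chiefly of fast fibres, of male FVBN mice aged 5 to 6 months. In the knockout (C2-/-), a Neo cassette between LoxP sites had replaced exons 2 to 22 of *Mybpc2*, the gene of fast myosin-binding protein C. The wild type (WT) carried the intact gene, and no other allele or treatment was named for either group. There were 4 WT and 3 C2-/- libraries, although the design text gives 4 animals per group. The allele is not limited to muscle. The published account counts as many mice as libraries in each group, so that p-values measure the spread between mice.

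Muscle fibres take up glucose mainly through GLUT4 (*Slc2a4*), which moves to the surface on insulin or contraction, and through GLUT1 (*Slc2a1*) at rest. Glycolytic fibres release lactate through MCT4 (*Slc16a3*), whereas oxidative fibres import it through MCT1 (*Slc16a1*). Amino acid carriers supply protein synthesis and the osmolyte taurine, cation carriers set sodium, potassium, calcium, magnesium and proton gradients, and zinc is moved out of the cytosol by most of the Slc30 (ZnT) family and into it by the Slc39 (ZIP) family.

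Values are log2 CPM, where CPM is the normalised reads of a gene per 1e6 reads of its library, mean ± SD over 4 WT and 3 C2-/- libraries unless each library is given. Each log2 change subtracts WT from C2-/- and carries its standard error (SE) from limma. A gene was past the threshold with a Benjamini-Hochberg adjusted p under 0.05 over all 12239 genes and a fold change above 1.5 (0.585 on the log2 scale). The libraries held 2613277 to 4917936 reads in C2-/-, 4683853 in WT replicate 4 and 14929214 to 15464499 in WT replicates 1 to 3. *Mybpc2* was at 12.41 to 12.85 in the WT libraries and at -0.47 to 1.67 in C2-/-, with 3 to 8 reads. All 6 markers of fast skeletal muscle were measured, 3 were lower and 0 higher in C2-/-, with 3 not past the threshold by limma, and their summed level was 17.03 to 17.33 in WT and 16.10 to 16.43 in C2-/-. Of 5 fibroblast markers, 4 were higher in C2-/- (summed level 8.81 to 9.57 in WT, 10.51 to 10.80 in C2-/-). Of 6 adipocyte markers, 3 were measured and 1 was higher (7.29 to 8.49 against 8.86 to 9.30). Of 5 erythroid markers, 1 was measured and was lower (2.07 to 2.37 against 0.19 to 1.16). Endothelial, macrophage, Schwann cell and slow-fibre markers had summed levels that overlapped between the groups. After the correction for GC content described below, 1 fast-muscle marker was higher and 2 were lower (median change -0.13, against -1.005 before). In that analysis 3 fibroblast markers, 1 adipocyte marker and 1 slow-fibre marker were higher, and the erythroid marker was not past the threshold. The part of these cell types in the changes below was not tested.

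Several main carriers of fuel fell in C2-/- muscle. GLUT4, the glucose 6-phosphate carrier *Slc37a4*, GLUT3 (*Slc2a3*) and the lactate exporter MCT4 were all lower, while the taurine carrier *Slc6a6* and the metal carrier *Slc39a8* were higher. Over the whole class, 66 of 173 carriers (38.2%) were past the threshold, against 45.2% of all genes, a share no higher than the background. Of these, 19 were higher in C2-/- (11.0%, against 20.2% of all genes) and 47 were lower (27.2%, against 25.0%). With quantile normalization the split was 30 higher and 44 lower. The median log2 change was -0.51 for the carriers and -0.14 for all genes. In 75 carriers every C2-/- value lay on one side of every WT value, 28 above and 47 below (43.4%, against 49.3% of all genes). In this bulk tissue, fewer cells of a type and less RNA per cell cannot be told apart.

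**Figure D1:**
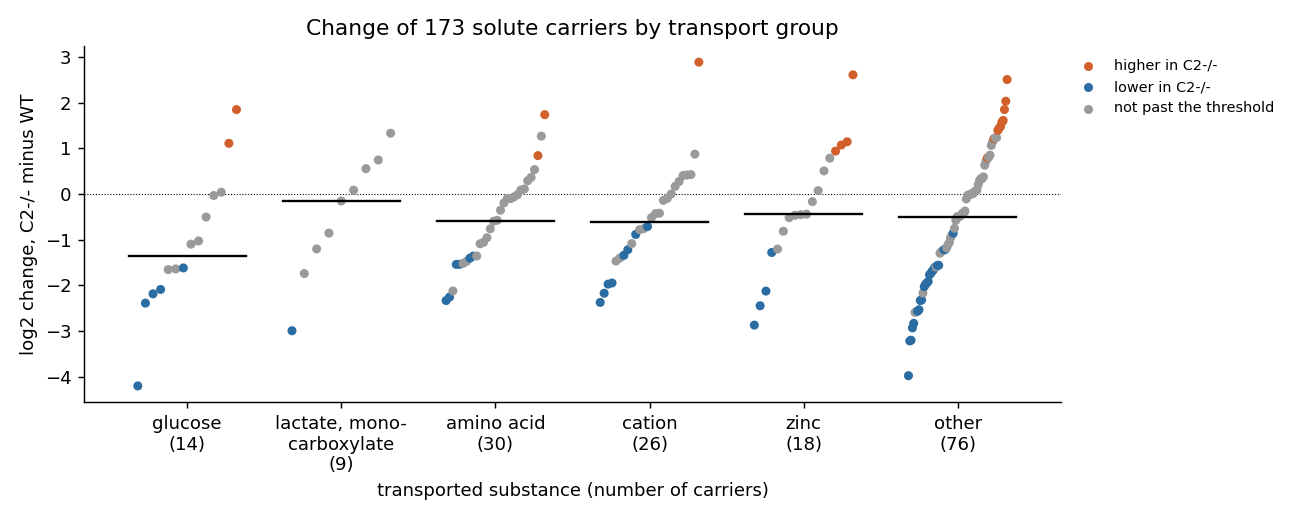
Log2 change (C2-/- minus WT, vertical axis) of each of the 173 carriers, in 6 transport groups along the horizontal axis and ordered by size within a group. Each point is a gene, coloured by its call, and the black line is the group median. The medians lie between -1.36 (glucose) and -0.15 (lactate and other monocarboxylates), and higher and lower calls occur side by side in the glucose, amino acid, cation and zinc groups.

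The direction of change followed the base composition of the transcript. Among the 58 carriers of lowest GC content, 15 were higher and 0 lower in C2-/-, with 43 others not past the threshold by limma (median change 0.37). Among the 57 in the middle, 3 were higher and 13 lower (median -0.57), and among the 58 of highest GC content, 1 was higher and 34 were lower (median -1.65). Across genes, Spearman's rho of change with GC content was -0.72 over the 173 carriers and -0.68 over all genes, which share the same libraries. After the dependence on GC content was removed from each library, 13 carriers were higher and 14 lower, 27 in all (15.6%, against 20.6% of all genes), or 12.3% of all genes higher and 8.32% lower. The median change of the carriers was then -0.25, and that of all genes 0.02. Both analyses called 9 carriers higher and 11 lower, 20 of 173, against 1652 of the 12181 genes with a GC content. None of the carriers was called in opposite directions, against 35 of all genes. These 20 carriers are described with both values below. Whether GC content or genotype made the difference in the remaining 46 cannot be told apart, since the groups differed in both.

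**Figure D2:**
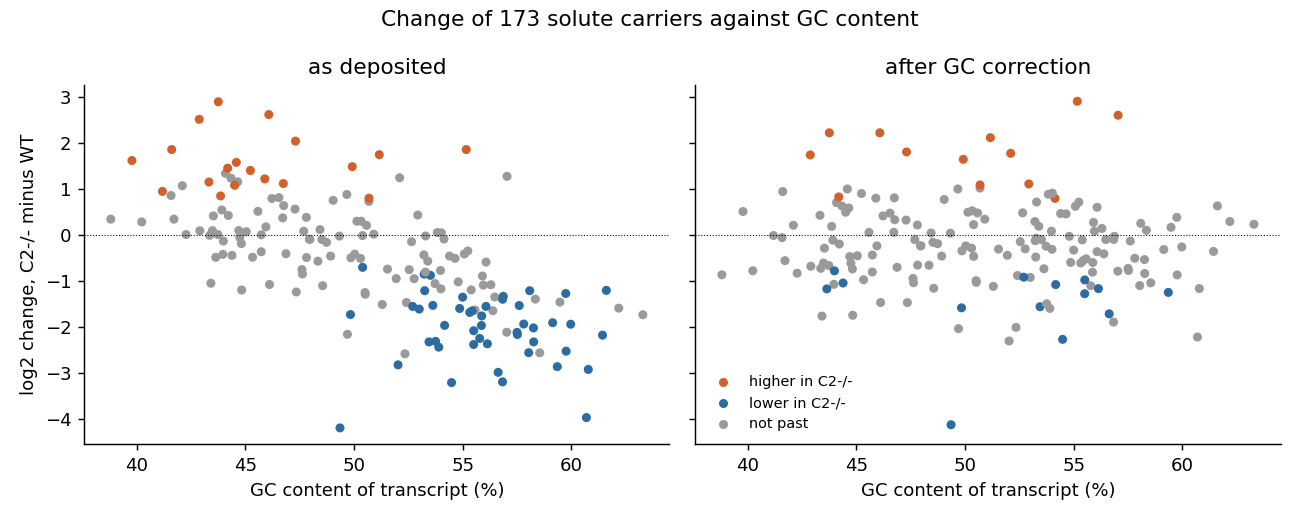
Log2 change (C2-/- minus WT) of the 173 carriers against the GC content of their transcript in percent, as deposited on the left and after correction of each library for GC content on the right. Points are genes coloured by call. On the left, higher calls gather below a GC content of about 50% and lower calls above it, and on the right both calls are spread along the axis.

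Glucose carriers included the largest fall of all members. Of 14 genes, 2 were higher, 5 lower and 7 not past the threshold, with a median change of -1.36. That was 14.3% higher and 35.7% lower, against 20.2% and 25.0% of all genes. After GC correction 1 was higher and 3 lower (28.6% in all, against 20.6%). *Slc2a4*, at chr11:69942539-69948188 of GRCm38 (minus strand), had the highest level per kilobase of transcript of all 173 carriers in WT (log2 8.14). It was at 9.46, 9.54, 9.70 and 9.20 in the 4 WT libraries and at 7.97, 7.08 and 7.11 in C2-/-. The groups were apart by more than 1 log2 unit. The change was -2.09 ± 0.23 (SE, adjusted p = 0.000302), which left 0.235 of the WT level, and -0.98 ± 0.16 after GC correction (adjusted p = 0.00339). Against WT replicate 4 alone, the WT library of similar depth, it was -1.81.

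*Slc37a4* carries glucose 6-phosphate into the endoplasmic reticulum. Its values were 7.48, 7.76, 7.61 and 7.17 in WT and 5.11, 5.02 and 5.23 in C2-/-, a narrow band far under WT. The change was -2.39 ± 0.18 (adjusted p = 0.000162) and -1.28 ± 0.17 after GC correction (adjusted p = 0.00188). *Slc2a3* encodes GLUT3, a high-affinity glucose carrier best known from neurons. It stood at 4.88, 5.00, 4.27 and 3.55 in WT and at 0.27, -0.83 and 1.25 in C2-/-, where it had 3, 1 and 11 reads. Its change of -4.20 ± 0.55 (adjusted p = 0.000571) was nearly the same after GC correction (-4.13 ± 0.53, adjusted p = 0.00177). Its transcript, at 49.4% GC, lay in the middle of the range.

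The other lower sugar carriers were *Slc2a8*, an intracellular hexose carrier (3.39 ± 0.57 in WT and 1.21 ± 0.92 in C2-/-, change -2.18, adjusted p = 0.00744), and *Slc45a4* (5.59 ± 0.28 and 3.97 ± 0.58, change -1.62, adjusted p = 0.00215). Neither was past the threshold after GC correction, with changes of -0.36 and -0.93. A pair of facilitative carriers of the same Slc2 family rose. *Slc2a10* was at 0.19, 0.71, 1.33 and 0.03 in WT and at 2.51, 3.36 and 1.37 in C2-/-, and its lowest C2-/- value barely exceeded the highest WT value. The change was 1.85 ± 0.61 (adjusted p = 0.030) and 2.90 ± 0.60 after GC correction (adjusted p = 0.00966). This call was lost without WT replicate 1, 2 or 4 or C2-/- replicate 1 or 2, with an adjusted p of up to 0.0792. *Slc2a12*, a glucose and urate carrier, was at 3.37 ± 0.35 in WT and 4.48 ± 0.61 in C2-/- (change 1.11, adjusted p = 0.0246), with 0.80 after GC correction (adjusted p = 0.132). Its call was lost without WT replicate 2 or 3 or C2-/- replicate 2 (adjusted p up to 0.0681). *Slc2a1* overlapped between the groups, with 3.44 ± 0.62 in WT and 3.48 ± 0.53 in C2-/- (change 0.04 ± 0.41, adjusted p = 0.942). After GC correction its change was 0.90 (adjusted p = 0.154), and it passed at 1.27 with a replicate block as well (adjusted p = 0.028) or without WT replicate 4 (adjusted p = 0.0178).

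**Figure D3:**
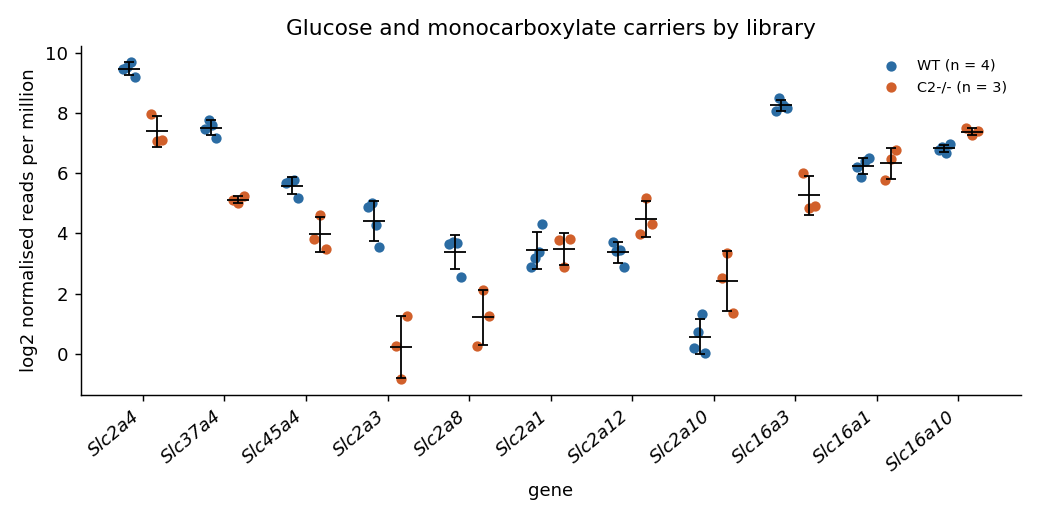
Log2 CPM (vertical axis) of 8 sugar and 3 monocarboxylate carriers in each library. Points are libraries (blue WT, n = 4; orange C2-/-, n = 3), and black bars are mean ± SD. *Slc2a4*, *Slc37a4*, *Slc2a3* and *Slc16a3* show separated groups with C2-/- below WT, whereas the groups of *Slc2a1* and *Slc16a1* overlap.

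The lactate and monocarboxylate group held 9 genes of the Slc16 family. A single member was lower (11.1%, against 25.0% of all genes) and none was higher (against 20.2%). With 8 not past the threshold by limma, the median change of the 9 was -0.15. Without WT replicate 4, or without C2-/- replicate 2, 3 and 2 were past it. The lower gene was *Slc16a3*, which encodes MCT4, at chr11:120948480-120960868. Its values were 8.06, 8.51, 8.27 and 8.17 in WT and 6.00, 4.86 and 4.92 in C2-/-, more than 2 log2 units apart. The change was -2.99 ± 0.27 (adjusted p = 0.000216), or 0.126 of the WT level, and -1.72 ± 0.21 after GC correction (adjusted p = 0.00123). *Slc16a1* (MCT1) was at 6.21, 5.88, 6.40 and 6.50 in WT and at 5.76, 6.46 and 6.78 in C2-/-, so that the groups overlapped (change 0.09 ± 0.25, adjusted p = 0.799). After GC correction its change was -0.68 (adjusted p = 0.0612), and it was past the threshold as lower with a replicate block as well (-0.67, adjusted p = 0.0341). In WT, MCT4 had the higher level per kilobase (log2 6.14, against 4.10 for MCT1). *Slc16a10*, a carrier of aromatic amino acids and thyroid hormone, was above WT in every C2-/- library (6.82 ± 0.12 and 7.38 ± 0.12). Its adjusted p was 0.0133, but the change of 0.56 was under the 1.5-fold limit, which it passed without WT replicate 4 (0.60) or C2-/- replicate 2 (0.62).

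Promoter windows are shown for 4 members that kept their call after GC correction, because they differ widely in base composition. RefSeq on GRCm38.p6 gave a window of 250 bases before to 50 bases after the transcript start for 134 of the 173 carriers. The windows of *Slc37a4* and *Slc16a3*, which both fell, are printed with those of the zinc carriers *Slc39a3*, which fell, and *Slc39a8*, which rose. Capitals mark the E-box CANNTG, the letters bound by muscle and other helix-loop-helix factors, and the core ACGTG or GCGTG of hypoxia response elements, on both strands. Where these 2 motifs overlap, both are in capitals. For *Slc37a4* and *Slc39a8* the table listed 3 and 2 windows, and the first is shown.
Slc37a4, chr9:44396696-44396995, plus strand: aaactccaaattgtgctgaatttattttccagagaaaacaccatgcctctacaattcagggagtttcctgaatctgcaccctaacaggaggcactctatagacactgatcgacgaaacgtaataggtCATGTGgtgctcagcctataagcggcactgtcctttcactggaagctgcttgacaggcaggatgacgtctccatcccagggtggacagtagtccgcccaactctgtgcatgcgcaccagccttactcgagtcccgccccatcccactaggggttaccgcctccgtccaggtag
Slc16a3, chr11:120948817-120949116, plus strand: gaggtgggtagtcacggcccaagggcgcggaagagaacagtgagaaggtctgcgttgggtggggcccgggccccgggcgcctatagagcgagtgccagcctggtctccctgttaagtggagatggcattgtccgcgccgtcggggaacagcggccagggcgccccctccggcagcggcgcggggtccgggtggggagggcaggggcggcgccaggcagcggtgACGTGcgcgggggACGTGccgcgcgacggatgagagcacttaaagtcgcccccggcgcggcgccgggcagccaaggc
Slc39a3, chr10:81037266-81037565, minus strand: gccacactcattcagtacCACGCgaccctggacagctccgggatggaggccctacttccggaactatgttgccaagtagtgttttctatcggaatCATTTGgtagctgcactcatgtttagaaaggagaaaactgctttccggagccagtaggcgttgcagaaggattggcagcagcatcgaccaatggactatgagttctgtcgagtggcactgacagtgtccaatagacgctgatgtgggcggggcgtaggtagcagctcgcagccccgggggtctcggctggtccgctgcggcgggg
Slc39a8, chr3:135825029-135825328, plus strand: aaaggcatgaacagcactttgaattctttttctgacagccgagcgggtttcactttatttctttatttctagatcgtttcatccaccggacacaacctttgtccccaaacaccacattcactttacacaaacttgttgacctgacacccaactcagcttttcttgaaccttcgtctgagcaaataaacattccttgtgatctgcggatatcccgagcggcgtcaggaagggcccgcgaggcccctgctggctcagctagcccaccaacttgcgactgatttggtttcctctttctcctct

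The *Slc16a3* window was 73.3% GC and held 2 hypoxia cores and no E-box, that of *Slc37a4* was 52.3% GC and held 1 E-box, that of *Slc39a3* was 57.0% GC and held 1 of each, and that of *Slc39a8* was 48.0% GC and held neither. An E-box was found in 67.2% of the 134 carrier windows and in 72.1% of all 27025 windows of the same length. A hypoxia core was found in 60.4% and 43.8%, and the GC box GGGCGG in 66.4% and 35.9%. The median window was 61.8% GC among carriers and 52.7% GC among all windows. Among the windows of carriers past the threshold, 9 of 17 higher and 19 of 34 lower genes held a hypoxia core, against 53 of 83 carriers not past it. The metal response core TGCACNC or TGCGCNC was present in 7 of 16 zinc carrier windows (43.8%), in 41.8% of all carrier windows and in 25.6% of all windows. Such matches are letters in a window and do not show a bound factor.

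Of 30 amino acid carriers, 2 were higher, 6 lower and 22 not past the threshold (median change -0.58). That was 26.7% past it, against 45.2% of all genes (6.7% higher and 20% lower, against 20.2% and 25.0%). After GC correction 2 were higher and 1 lower (10% in all, against 20.6% of all genes, median -0.20). *Slc6a6*, which imports taurine, rose. It was at 6.97, 7.41, 7.38 and 8.23 in WT and at 9.60, 9.33 and 8.77 in C2-/-, all above WT. The change was 1.74 ± 0.29 (adjusted p = 0.00154), a 3.33-fold higher level, and 2.11 ± 0.31 after GC correction (adjusted p = 0.00256). Against WT replicate 4 alone it was 1.01.

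*Slc38a2* (SNAT2), a sodium-coupled importer of small neutral amino acids, was at 7.21, 7.12, 7.02 and 7.51 in WT and at 7.97, 7.95 and 8.25 in C2-/- (change 0.84 ± 0.17, adjusted p = 0.00337), but at 0.18 after GC correction (adjusted p = 0.379). The creatine carrier *Slc6a8* showed the reverse course, with 7.44 ± 0.28 in WT and 6.04 ± 0.05 in C2-/- (change -1.40 ± 0.18, adjusted p = 0.000531) and only -0.10 after GC correction (adjusted p = 0.679). *Slc43a2* (LAT4), an exporter of branched-chain amino acids, was lower in both analyses. Its values were 4.60, 4.12, 4.37 and 4.20 in WT and 2.75, 1.97 and 1.25 in C2-/- (change -2.33 ± 0.38, adjusted p = 0.00139, and -1.57 after GC correction, adjusted p = 0.0124). *Slc15a4*, a lysosomal histidine and peptide carrier, was at 3.62 ± 0.45 and 1.37 ± 0.85 (change -2.25, adjusted p = 0.00407), and at -1.11 after GC correction (adjusted p = 0.072). None of the 7 measured genes of the Slc7 family was past the threshold by limma, although *Slc7a10* reached it after GC correction (change 2.59, adjusted p = 0.0111). *Slc7a10* had 4 to 26 reads in WT and 6 to 13 in C2-/-, and 17.9% of its exonic bases overlap *Lrp3* on the opposite strand. Among the carriers of essential amino acids, *Slc7a5* (LAT1) had a change of -1.09 (adjusted p = 0.167) and its partner chain *Slc3a2* one of -0.57 (adjusted p = 0.0801). Without C2-/- replicate 3, *Slc7a5* (-1.59) and *Slc3a2* (-0.75) were past the threshold, and *Slc3a2* also without WT replicate 4 (-0.65). After GC correction both changes turned positive, at 0.14 (adjusted p = 0.893) and 0.18 (adjusted p = 0.592). The glutamine carrier *Slc1a5* was between 2.75 and 3.27 in WT and at 3.53, -2.42 and 3.95 in C2-/-, where replicate 2 had 0 reads and the other libraries lay above WT. Its change of -1.35 (adjusted p = 0.390) was 0.70 without that library (adjusted p = 0.0779) and -0.11 after GC correction.

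Of 26 cation carriers, 1 was higher, 8 were lower and 17 were not past the threshold (median change -0.61). The shares were 3.8% higher and 30.8% lower, against 20.2% and 25.0% of all genes. After GC correction 3 were higher and 3 lower (23.1% in all, against 20.6% of all genes, median -0.22). Without any one of WT replicates 1, 2 and 3, 5 of the 26 were past the threshold. *Slc41a3*, a carrier of magnesium, was at 7.10, 7.03, 7.20 and 6.04 in WT and at 5.01, 4.30 and 4.11 in C2-/-. WT replicate 4 lay between the other WT libraries and C2-/-. The change was -2.37 ± 0.32 (adjusted p = 0.000583) and -1.17 ± 0.23 after GC correction (adjusted p = 0.00738). Its relative *Slc41a1*, the sodium and magnesium exchanger, overlapped between groups (change -0.09, adjusted p = 0.744) and was higher after GC correction (0.79, adjusted p = 0.0303). *Slc9a8*, a sodium and proton exchanger of the Golgi, was at 5.52, 5.82, 5.70 and 4.99 in WT and at 3.87, 2.87 and 3.87 in C2-/- (change -1.97 ± 0.31, adjusted p = 0.00122). It was also lower after GC correction (-1.08, adjusted p = 0.0149).

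*Slc9a2*, another sodium and proton exchanger, was at the edge of the threshold, with a change of -0.88 ± 0.33 and an adjusted p of 0.0499, and its call was lost without WT replicate 1, 2 or 3 or C2-/- replicate 1 or 3. *Slc12a4* (KCC1), a potassium and chloride carrier, was at 3.64 ± 0.41 in WT and at -0.22, 2.63 and 2.01 in C2-/- (change -2.17, adjusted p = 0.0174, and -0.78 after GC correction, adjusted p = 0.455). *Slc12a2* (NKCC1), which brings in sodium, potassium and chloride, was above WT in all C2-/- libraries (7.29 ± 0.12 and 7.71 ± 0.04), with a change of 0.42 under the fold limit (adjusted p = 0.0343). After GC correction every C2-/- library was below WT instead (-0.20, adjusted p = 0.288). The sodium and calcium exchangers *Slc8a1* and *Slc8a3* had changes of 0.28 (adjusted p = 0.628) and 0.43 (adjusted p = 0.173). *Slc8a1* stood at -0.78 after GC correction (adjusted p = 0.279). *Slc8a3* was higher after GC correction (1.10, adjusted p = 0.0215) and without WT replicate 4 (0.65, adjusted p = 0.00643).

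*Slc24a5*, a potassium-dependent sodium and calcium exchanger known from pigment cells, had the largest rise of all carriers before GC correction, but not after it. It was at 0.94, -0.05, 0.73 and 0.77 in WT and at 3.24, 3.31 and 3.91 in C2-/- (change 2.89 ± 0.45, adjusted p = 0.00114, and 2.21 after GC correction, adjusted p = 0.00782). However, 39.5% of its exonic bases overlap *Myef2* on the opposite strand. *Myef2* rose by a similar amount (1.62 ± 0.59 in WT and 3.95 ± 0.79 in C2-/-, change 2.34 ± 0.49, adjusted p = 0.00414, and 1.53 after GC correction, adjusted p = 0.0555). As the use of strand in counting was not stated, reads of these 2 genes cannot be told apart.

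**Figure D4:**
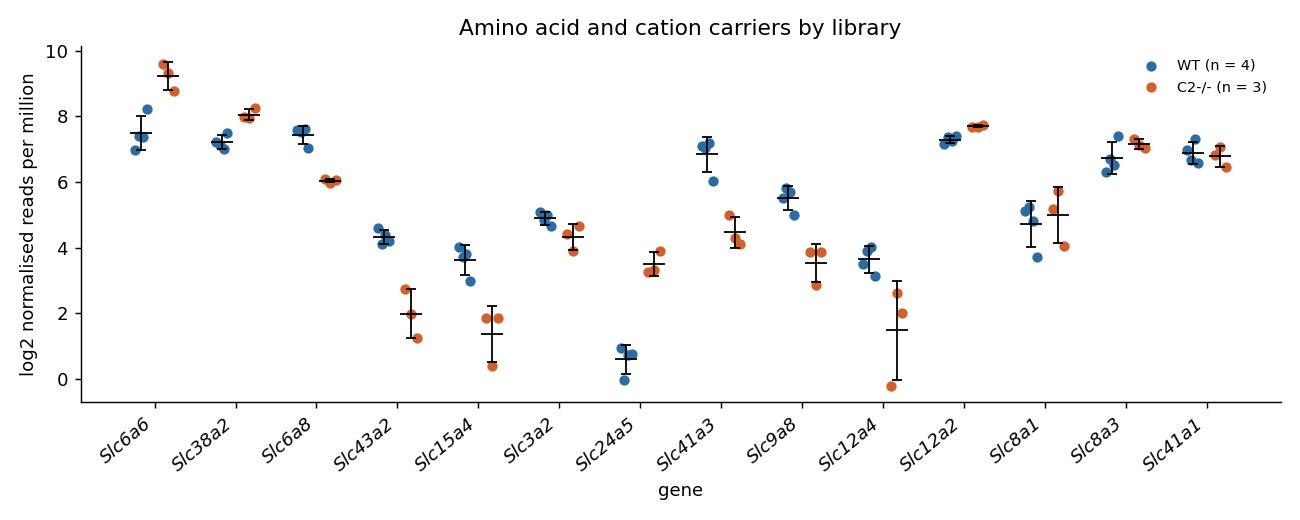
Log2 CPM (vertical axis) of 6 amino acid carriers and 8 cation carriers in each library. Points are libraries (blue WT, n = 4; orange C2-/-, n = 3), and black bars are mean ± SD. *Slc6a6* and *Slc24a5* lie higher in every C2-/- library, *Slc43a2*, *Slc41a3* and *Slc9a8* lie lower, and *Slc8a1* and *Slc41a1* overlap.

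Zinc carriers moved in both directions, with 4 of 18 higher and 4 lower (22.2% each, against 20.2% and 25.0% of all genes). The total of 8 was 5 without WT replicate 1 or 2. Of the 7 Slc30 genes, most of which lower cytosolic zinc, 2 were higher and 0 lower, with 5 not past the threshold by limma, and of the 11 Slc39 genes, which raise it, 2 were higher and 4 lower. After GC correction the Slc30 split was the opposite, with 0 higher and 1 lower, and 1 Slc39 gene was higher and 1 lower. The lower Slc30 gene was *Slc30a9*, known as an exporter of zinc from mitochondria and not from the cytosol. It was at 7.14, 7.21, 7.30 and 6.83 in WT and at 7.02, 6.17 and 6.82 in C2-/-, where the groups overlapped (change -0.45, adjusted p = 0.114). Its corrected values were 6.94 to 7.65 in WT and 5.83 to 6.71 in C2-/- (change -1.05, adjusted p = 0.0133). Whether the 2 families differ was not tested. *Slc39a8* (ZIP8), an importer of zinc, manganese and iron, was at 0.35, -0.51, -0.19 and -0.33 in WT and at 2.59, 1.97 and 2.75 in C2-/-, with 10 to 32 reads there. The change was 2.61 ± 0.52 (adjusted p = 0.00337) and 2.21 ± 0.51 after GC correction (adjusted p = 0.0142), but with a replicate block as well it fell short of the threshold (2.13, adjusted p = 0.0512). *Slc39a3* (ZIP3), a zinc importer of the plasma membrane, was at 4.55, 4.64, 4.72 and 3.66 in WT and at 2.32, 1.28 and 0.98 in C2-/-, with no overlap. The change was -2.87 ± 0.42 (adjusted p = 0.000908) and -1.25 ± 0.34 after GC correction (adjusted p = 0.0268).

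The other zinc carriers past the threshold did not pass after GC correction. The higher ones were *Slc30a7*, which loads zinc into the Golgi (change 1.14, adjusted p = 0.0307, and 0.42 corrected), *Slc30a4*, which fills vesicles (0.94, adjusted p = 0.00261, and -0.02 corrected), and the importer *Slc39a10* (1.07, adjusted p = 0.0246, and 0.49 corrected). The call of *Slc30a7* was lost without WT replicate 1, 2 or 3 or any C2-/- replicate (adjusted p up to 0.0858), and that of *Slc39a10* without WT replicate 1 or 2 or C2-/- replicate 2 (up to 0.0598). In *Slc30a7*, 16% of the exonic bases overlap the opposite-strand gene *Gm6649*. The lower ones were *Slc39a11* (change -2.44, adjusted p = 0.0219, and -1.60 corrected), *Slc39a13*, which exports zinc from the Golgi (-1.28, adjusted p = 0.00178, and 0.38 corrected), and *Slc39a7*, which releases zinc from the endoplasmic reticulum (-2.12, adjusted p = 0.00171, and -0.73 corrected). The call of *Slc39a11* was lost without WT replicate 1, 2 or 3 (adjusted p up to 0.0718). *Slc39a7* shares 82.2% of its 50-base stretches with the readthrough gene model *Gm20427*, so that its count is uncertain. *Slc30a1* (ZnT1), the zinc exporter of the plasma membrane, had a change of 0.79 (adjusted p = 0.088), which passed without C2-/- replicate 1 (1.14, adjusted p = 0.0193). *Slc39a14* (ZIP14), an importer of zinc and iron, had one of -0.46 (adjusted p = 0.401), which passed without C2-/- replicate 2 (-1.01, adjusted p = 0.0378).

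**Figure D5:**
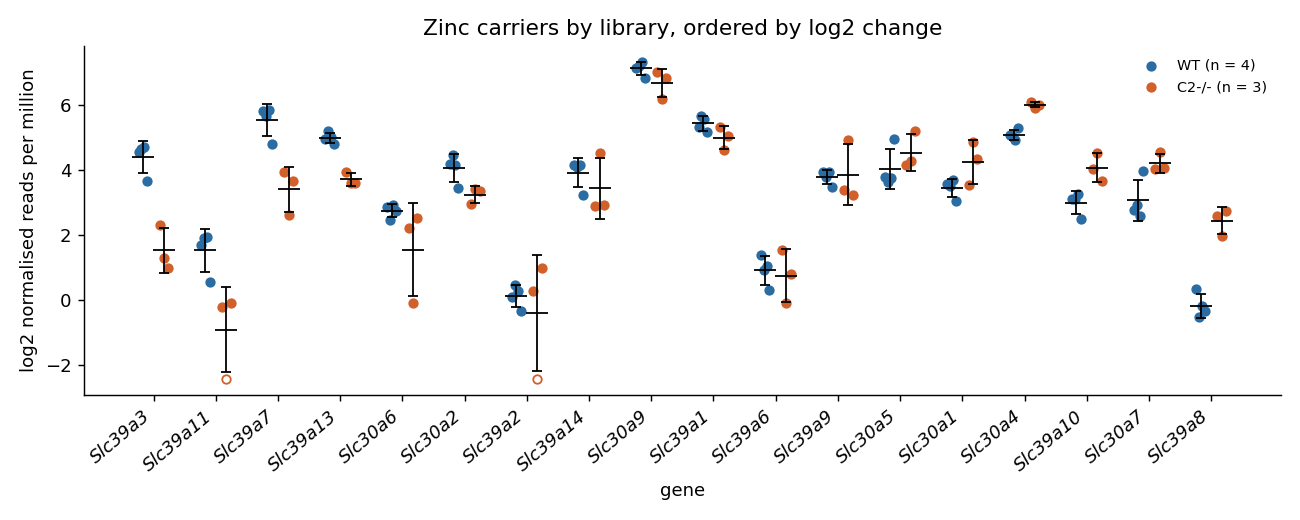
Log2 CPM (vertical axis) of the 18 zinc carriers in each library, ordered from the most negative to the most positive log2 change. Points are libraries (blue WT, n = 4; orange C2-/-, n = 3; open points have 0 reads), and black bars are mean ± SD. The groups are apart at both ends of the order, with *Slc39a3* lower and *Slc39a8* higher in C2-/-.

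Among the 76 carriers of other substances, 10 were higher and 23 lower (median change -0.49), and 6 and 4 after GC correction. These were 13.2% and 30.3%, against 20.2% and 25.0% of all genes, and 13.2% in all after GC correction, against 20.6%. Of the 9 lipid, choline and haem carriers, 5 were lower (55.6%, against 25.0% of all genes) and 0 higher, with 4 not past the threshold by limma, and after GC correction *Slc44a2* was lower and *Slc10a3* higher (1.77, adjusted p = 0.0283, and 1.24, adjusted p = 0.060, before correction). The 5 included the 3 measured fatty acid transport proteins of the Slc27 family, of which *Slc27a3* had 3, 0 and 0 reads in C2-/- and lost its call in 5 of 7 analyses that left out 1 library (adjusted p up to 0.0716). *Slc27a4* was at 3.69 ± 0.20 in WT and at 2.42, -2.42 and 1.48 in C2-/-, with 15, 0 and 13 reads (change -3.20 ± 0.94, adjusted p = 0.0193). None of the 3 Slc27 genes passed after GC correction. *Slc22a5* (OCTN2), which imports carnitine, was at 3.86, 3.54, 3.92 and 2.89 in WT and at 2.10, 1.49 and 1.86 in C2-/-, apart from WT. Its change was -1.74 ± 0.38 (adjusted p = 0.00526) and -1.59 after GC correction (adjusted p = 0.0131), although 27.1% of its 50-base stretches recur in another gene. *Slc19a1*, the reduced folate carrier, had 220 reads over the 4 WT libraries and 4 over the 3 C2-/- libraries. Scaled by library size, WT was 11.4 times C2-/- (95% exact interval 4.40 to 42.3, counting error only). Its fitted change was -3.21 (adjusted p = 0.00397) and -2.27 after GC correction (adjusted p = 0.0273).

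Both measured Slc18 carriers rose. *Slc18a2* (VMAT2), which loads monoamines into vesicles, was at 1.80, 1.86, 1.88 and 1.51 in WT and at 3.76, 4.59 and 4.45 in C2-/- (change 2.51 ± 0.35, adjusted p = 0.000727, and 1.73 after GC correction, adjusted p = 0.00878). *Slc18b1*, a polyamine carrier, was at 1.75, 1.92, 2.28 and 3.01 in WT and at 4.28, 4.40 and 4.13 in C2-/- (change 2.03 ± 0.37, adjusted p = 0.00227, and 1.80 corrected, adjusted p = 0.00877). The sodium bicarbonate carriers *Slc4a4* (change 1.21, adjusted p = 0.0138) and *Slc4a7* (1.85 ± 0.33, adjusted p = 0.00203) rose too. After GC correction they stood at 0.79 and 0.94 and did not pass. *Slc20a1*, a phosphate carrier, had a change of -0.58 (adjusted p = 0.185), which passed without WT replicate 4 (-0.81, adjusted p = 0.0441). *Slc35e4*, an orphan of the nucleotide sugar family, was at 4.88 ± 0.25 in WT and at 2.67, -2.42 and 2.46 in C2-/-, with 18, 0 and 26 reads. Its change of -3.97 ± 1.02 (adjusted p = 0.0106) fell short of the threshold after GC correction (-2.22, adjusted p = 0.104). Of 27 nucleoside and nucleotide sugar carriers, 4 were higher (14.8%) and 7 lower (25.9%), against 20.2% and 25.0% of all genes. After GC correction 2 were higher and 0 lower (7.4% in all, against 20.6%). The higher ones included *Slc35a1* and *Slc35b1*, which supply the Golgi and endoplasmic reticulum, with changes of 1.44 and 0.79, and of 0.82 and 1.08 after GC correction. The lysosomal carrier *Slc46a3* was higher by 1.48 and by 1.64. The choline carrier *Slc44a2* was lower in both (-1.56 and -0.92).

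A list of 31 genes that work with these carriers was set beside them, of which 30 were measured. It held chaperones, GLUT4 traffic proteins, enzymes of glucose and lactate use, zinc-binding proteins and ion pumps. Of the 30, 9 were higher and 9 lower (30.0% each, against 20.2% and 25.0% of all genes). The total of 18 was 9 without WT replicate 1 or 3, 10 without C2-/- replicate 3 and 11 without WT replicate 2. After GC correction 5 were higher and 0 lower (16.7%, against 20.6% of all genes), with 25 not past the threshold by limma. *Bsg* encodes basigin, the chaperone that brings MCT1 and MCT4 to the membrane. It was between 8.84 and 9.18 in WT and at 7.47, 6.89 and 7.32 in C2-/- (change -1.77 ± 0.18, adjusted p = 0.000231), but its corrected change of -0.37 did not pass (adjusted p = 0.0872). *Emb*, the other listed chaperone of monocarboxylate carriers, was higher (change 1.70 ± 0.56, adjusted p = 0.0310), with 4 to 26 reads per library. Its corrected change of 1.16 did not pass (adjusted p = 0.167), and its call was lost in 5 of 7 analyses that left out 1 library. Of 9 measured genes of GLUT4 traffic, *Vamp2* (0.77), *Snap23* (1.39), *Stxbp3* (0.97) and *Rab10* (0.65) were higher, *Aspscr1* (-1.73) was lower and 4 were not past the threshold, although after GC correction *Stxbp3* stood at -0.0090 and *Vamp2* alone of these passed (1.49). The zinc-binding metallothioneins *Mt1* and *Mt2* rose (1.87, adjusted p = 0.0386, and 2.10, adjusted p = 0.0329), as did *Mtf1*, the metal-sensing transcription factor that controls them (0.64, adjusted p = 0.0384). All 3 passed after GC correction (2.54, 3.21 and 0.72), but *Mtf1* did not with a replicate block as well (adjusted p = 0.0704) or without WT replicate 4 (adjusted p = 0.0555). *Mt1* and *Mt2* overlapped between groups, with WT replicate 4 the highest WT library (3.46 and 2.42). Without C2-/- replicate 3 their changes were 1.08 (adjusted p = 0.152) and 1.35 (adjusted p = 0.124). All 3 calls were also lost without WT replicate 1, 2 or 3, those of *Mt1* and *Mtf1* without C2-/- replicate 2, and that of *Mtf1* without C2-/- replicate 3. The call of *Rab10* was lost without WT replicate 1 or 3 or C2-/- replicate 1 or 2 (adjusted p up to 0.0697). These genes were picked out of the list after their values were seen.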

How the data were processed

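The authors aligned reads to GRCm38.p6 with HISAT, counted them per gene with featureCounts (v1.5.2), scaled them with edgeR's TMM factors and deposited log2 values for 12239 genes in 7 libraries. The use of strand, the handling of multiply mapped reads and the filter on genes were not stated. A table of the authors' own comparison (log2 fold changes and p-values) was not used. Each value equalled log2 of a whole read number plus 0.5 over the effective library size, times 1e6, and 100% came out whole within 0.001 reads.

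The deposited values were tested with limma 3.58.1 (R 4.3.3; lmFit, eBayes with trend), with genotype as the only term, two-sided. The GC correction took out a natural spline of 5 degrees of freedom from every library, for the 12181 genes with a GC content (annotation of GRCm38). The fit was tested on simulated data. With 3 reads, a gene was at 0.195 to 1.12 CPM, a floor that covers counting error only. Every pair of libraries differed by more than sampling noise. Overlap with other genes was read from the same annotation.

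Members and lists were chosen with earlier results of these data known. Named carriers were 23 fixed ones plus the 2 largest rises and falls per group and the 5 largest of all members, among genes past the threshold whose groups did not overlap and whose higher group averaged at least 1 on the log2 scale. This gave 41, of which 1 is not reported here, and 15 more (*Slc2a8*, *Slc45a4*, *Slc9a8*, *Slc30a4*, *Slc39a7*, *Slc39a10*, *Slc39a13*, *Slc44a2*, *Slc35a1*, *Slc35b1*, *Slc46a3*, *Slc7a10*, *Slc30a9*, *Slc27a3* and *Slc10a3*) were named after their values were seen. Replicate numbers did not pair the samples.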

Additional observations from a re-analysis of the deposited data

Results flagged for a closer look

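In 11 of the 55 named carriers, WT replicate 4 stood apart from the other WT libraries by more than Dixon's criterion allows for 4 samples. With 55 independent and unselected genes, chance would mark about 2.8. These genes share libraries and many were named by their values, so the counts cannot be compared. WT replicate 4 was the lowest WT library in 10 of the 11. It stood at 7.02 in *Slc6a8* (others 7.54 to 7.63), 4.61 in *Slc9a2* (5.36 to 5.46), 3.24 in *Slc39a14* (4.09 to 4.16), 6.04 in *Slc41a3* (7.03 to 7.20) and 3.66 in *Slc39a3* (4.55 to 4.72). In *Slc4a7* it was at 2.42 (3.46 to 3.64), in *Slc35e4* at 4.50 (4.97 to 5.06), in *Slc2a8* at 2.54 (3.65 to 3.70), in *Slc45a4* at 5.16 (5.68 to 5.78) and in *Slc39a7* at 4.80 (5.66 to 5.84). In *Slc35b1* it was the highest, at 5.74 (5.39 to 5.41). All values are log2 CPM. WT replicate 4 held 4683853 reads, against 14929214 or more in the other WT libraries.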

How the results depend on the processing

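The depth and GC content of the libraries limit these results, since the 3 deepest libraries were all WT and carriers with few reads in C2-/- have uncertain changes. Of 173 carriers, 66 were past the threshold (19 higher, 47 lower). After GC correction 27 were (14 lower), with 4 sugar, 1 monocarboxylate, 3 amino acid, 6 cation and 3 zinc carriers and 5 of 30 partner genes. With a replicate block as well, 38 were (22 lower; 6 sugar, 2 monocarboxylate, 5 amino acid, 7 cation and 4 zinc carriers; 5 partners). Without WT replicate 4 after GC correction, 41 were (23 lower; 5 amino acid and 4 zinc carriers; 5 partners), and with only genes of a mean log2 value of at least 3 after GC correction, 22 were (8 higher, 14 lower; 3 sugar, 2 amino acid, 5 cation and 3 zinc carriers; 4 partners). These 2 settings were chosen after seeing the data. At an adjusted p under 0.01 there were 43 (12 higher, 31 lower; 4 cation and 5 zinc carriers; 8 partners). Quantile normalization gave 30 higher calls, 2 monocarboxylate calls and a median change of -0.11, in place of -0.51. A filter on a mean log2 value of at least 3 gave a median of -0.14, 4 sugar and 5 cation calls. Centring each library on its median gave 2 monocarboxylate calls and moved the median change of all genes from -0.14 to 0.02. Library quality weights gave 3 monocarboxylate calls. voom on the recovered reads called 70 carriers, and the other counts stayed within 1.5 times. Without 1 library at a time, the counts were 52 to 76 carriers, 5 to 8 sugar, 1 to 3 monocarboxylate, 7 to 11 amino acid, 5 to 10 cation and 5 to 10 zinc carriers, and 9 to 19 partners. The same replicate number did not mark samples that deviated together (r of deviations 0.05, -0.06 and -0.05, and not every sample was closest to its own number). The replicate block called 69 carriers, 2 of them monocarboxylate carriers. WT replicate 4 was alone in its block, so changes with the block equal those without that library and only their errors differ. Among named genes past the threshold with or without GC correction, directions turned under it for *Slc41a1* (0.79, and 0.76 with the block or without WT replicate 4), *Slc30a4* (-0.019 and -0.030), *Slc39a13* (0.38 and 0.45) and *Stxbp3* (-0.0090 and -0.0478), with the same values where only genes of at least 3 were kept. The sign also turned for *Slc7a5* (0.14), *Slc3a2* (0.18), *Slc12a2* (-0.20), *Slc8a1* (-0.78) and *Slc16a1* (-0.68), which were past the threshold in neither. Of these, *Slc8a1* passed after GC correction with the block or without WT replicate 4 (-1.21), and *Slc16a1* with the block (-0.67). *Slc45a4*, *Slc39a7* and *Slc4a4* passed after GC correction with the block or without WT replicate 4, *Slc35e4* with the block and *Slc20a1* without WT replicate 4, and *Slc10a3*, which passed after GC correction, did not with the block. The cause was not tested. In all 20 analyses without a filter on the mean value, 17 carriers kept their direction and call, 6 higher and 11 lower. The share of all genes that did so was not determined, and these analyses share the same 7 libraries. The 17 include *Slc24a5*, whose reads cannot be told apart from those of *Myef2*.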
